A study of Mus musculus with 38 samples.

Results

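The genes described here encode pyruvate dehydrogenase and the enzymes that switch it off and on. They are 3 subunits of the complex (Pdha1, Pdhb and Dlat), 4 pyruvate dehydrogenase kinases (Pdk1, Pdk2, Pdk3 and Pdk4) and 2 pyruvate dehydrogenase phosphatases (Ppm2c, the older symbol of Pdp1, and Pdp2). These 9 were found by name among the 29411 gene names of the array, and all 9 were among the 21625 genes that were bright enough to test. The list was chosen by function, with earlier results of the same arrays known. Ppm2c had been named before for its higher signal in 1 of the dose groups, so its difference there is given as a description with no test. Where a gene had several probes, 1 was selected on its mean signal over all arrays, which was the highest of its probes.

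RNA from the brown adipose tissue of C57BL/6J mice had been hybridised to 38 arrays, each in 1 colour. The mice, weaned at 3 to 4 weeks of age, received a low fat diet with 10% of calories from fat (LFC), or a diet with 60% of calories from fat and more sucrose (HFC). In 3 further groups the high fat diet came with Kal-1, an aqueous herbal preparation, of which they received 5 µg (HF5), 20 µg (HF20) or 75 µg (HF75). No genetic change was made in any group, so all dose groups share with HFC the high fat and high sucrose food, and they differ from LFC in both food and formulation. LFC and HFC have 10 arrays each, at Day 6, 10 and 14 and at Week 0, 3, 6, 9, 12, 15 and 18, and each dose has 6 arrays at Weeks 3 to 18. There was 1 array per group and time point, so the replicates of a group are its arrays at different times. The design text of the series speaks of 3 biological replicates, and whether an array holds RNA of 1 animal or of several is not given in the sources used here. The p values of group differences therefore measure how these differences vary between time points, and no spread within a group at 1 time point. Only the trend over days, fitted without a time point term, is set against the spread between arrays of different times.

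Pyruvate dehydrogenase sits in the mitochondrial matrix and turns pyruvate, the end product of glycolysis, into acetyl-CoA for the citric acid cycle or for fat synthesis. Its E1 enzyme is a tetramer of the alpha subunit Pdha1 and the beta subunit Pdhb, and its E2 core, Dlat, passes the acetyl group on to coenzyme A. The kinases phosphorylate serines of the E1 alpha subunit and so shut the complex, and the phosphatases remove the phosphate and reopen it. Pdk4 is well known to be induced by fasting and fatty acids, Pdk1 by hypoxia, and brown fat is a tissue that burns both fatty acids and glucose.

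Each gene is read through 60-base probes, and the first 30 bases of some are shown, 5′ to 3′, as the scanner files give them. The subunit probes and the single Pdk4 probe carry most of the results below. Both probes of Ppm2c and both of Pdk3 are shown because the pair did not follow each other closely. No base is marked, and all letters are in lower case.
Pdha1: tgtgctctcaacttggacaggaaataccca
Pdhb: cacaatttggagtaggagctgagatttgtg
Dlat: agcagataatgagaaaggctttgatgtggc
Pdk4: tatgaacccatgggagactttaaactcttg
Ppm2c, selected probe: atatttagtcagtgcttcatgttacatgta
Ppm2c, second probe: acgactctctaaaatgcttagtcttcctga
Pdk3, selected probe: cctatattctgtatcttgttatggagttta
Pdk3, second probe: aaatacaaggctaaacaggacaagatcaag

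The 2 probes of a gene share runs of at most 4 to 6 bases, so they read different stretches of the transcript. The longest run that a probe shares with a probe of another of these genes is 7 to 11 bases. The deposited table places Pdha1 on chromosome X, Pdhb on 14, Dlat on 9, Pdk1 on 2, Pdk2 on 11, Pdk4 on 6 and Pdp2 on 8.

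Levels are given as log2 signal relative to the 75th percentile of the same array, so 0 is the signal of that percentile. Signal also depends on the probe, and levels are therefore compared between arrays and never between genes. Before the results, 2 features of the arrays need to be known. The 75th percentile itself ran from 35.1 to 1209 intensity units, and 11 arrays at or above 600 are called bright here, a boundary set after the arrays were seen. They are 4 LFC, 2 HFC, 4 HF20 and 1 HF75 arrays, and no HF5 array is among them. The HF75 array of Week 3 stood apart in its brown fat markers: Ucp1, the uncoupling protein that defines the tissue, was at -3.08 there and between 3.38 and 8.57 on the other 37 arrays. Of 12 brown fat markers, 10 were well above background there, and 7 were lower than on every other array. Their mean was -0.95 against 2.19 to 4.61, with Cidea at -1.78 against 5.58 to 8.77, while the general fat marker Adipoq, at 4.16, lay within the range of the others (1.57 to 6.72). The mean of the white fat markers, 0.34, and that of the macrophage markers, 0.92, were above all other arrays (highest -0.67 and 0.34), and the erythroid mean, -2.56, was below all others (lowest -2.11). The main differences of HF75 from HFC and among doses are given with and without this array. Other HF75 values include it unless stated.

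**Figure D1:**
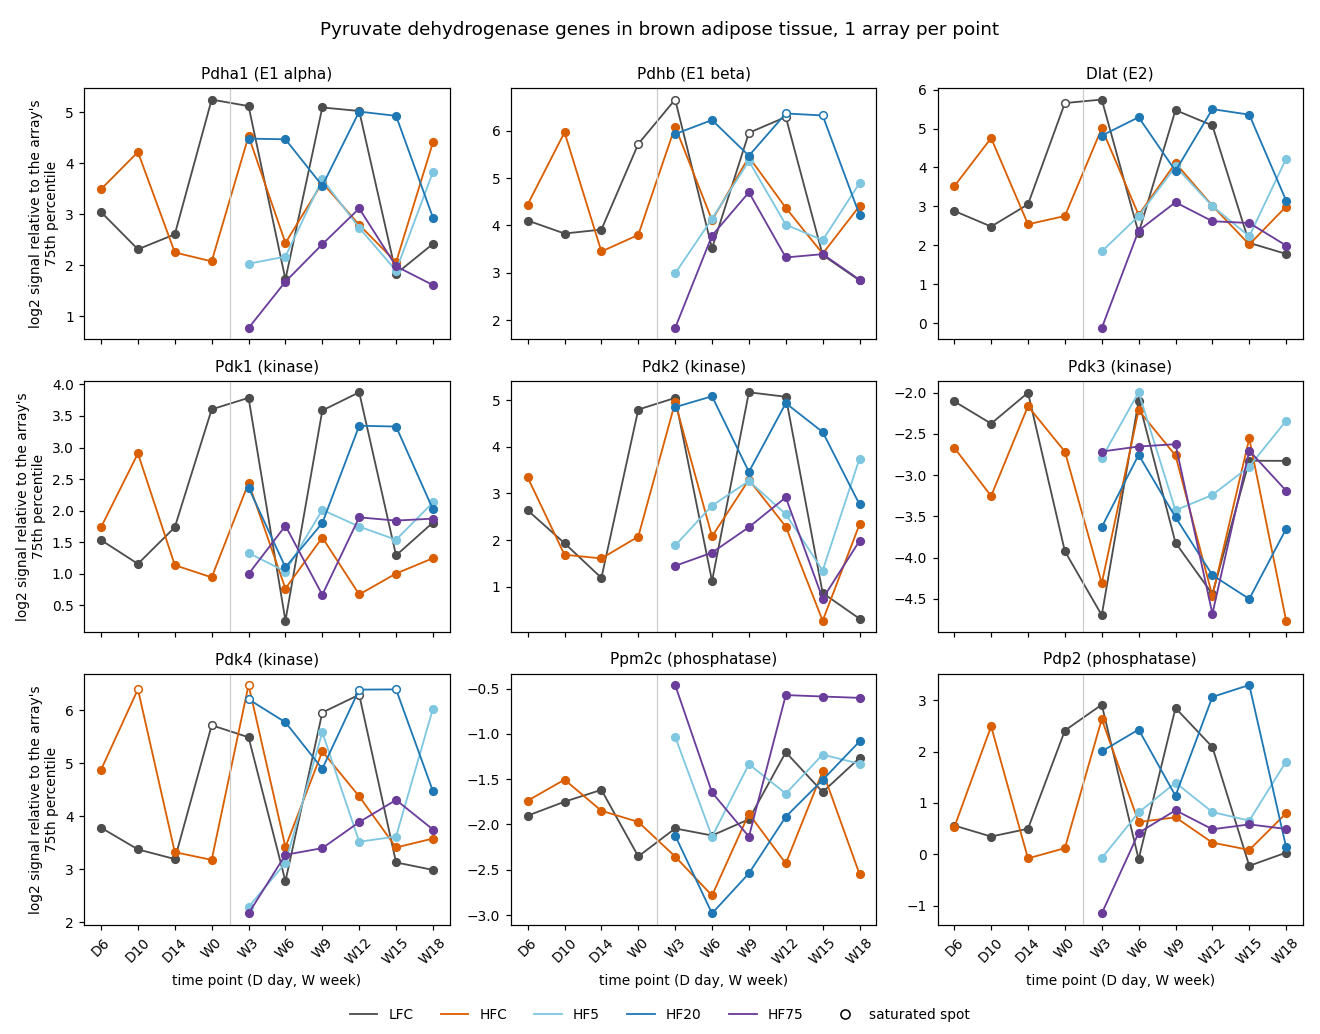
Log2 signal of each gene relative to the 75th percentile of the array (vertical axis) at each labelled time point (horizontal axis), with 1 array per point, lines joining the arrays of a group and open circles for saturated spots. The LFC values of Pdha1 lie between 5.03 and 5.25 at Weeks 0, 3, 9 and 12 and between 1.73 and 3.05 at the other 6 time points, and the HF75 value of Week 3 is the lowest of all arrays for Pdha1, Pdhb, Dlat, Pdk4 and Pdp2.

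All 3 subunit genes were well above background on all 38 arrays. Pdha1 ran from 0.77 to 5.25 with a median of 2.86, Pdhb from 1.83 to 6.66 with a median of 4.18, and Dlat from -0.12 to 5.74 with a median of 3.01. The spot of Pdhb was saturated on 6 arrays and that of Dlat on 1, so that their highest values are lower limits. In LFC the 3 genes moved between a high and a low state from one time point to the next. Pdha1 was at 5.25, 5.12, 5.09 and 5.03 at Weeks 0, 3, 9 and 12, and its highest value at the other 6 time points was 3.05, at Day 6. Those 4 LFC arrays are the bright ones. Day 14 and Week 0 are labels for the same day on the diet, yet the LFC arrays of the pair differed by 2.64 for Pdha1, at least 1.81 for Pdhb and at least 2.60 for Dlat, with the bright Week 0 array higher and its Pdhb and Dlat spots saturated. The HFC arrays of the same pair, both dim, differed by -0.17, 0.35 and 0.21.

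The same link to brightness held over all groups. On the 10 bright arrays other than HF75 Week 3, Pdha1 was never under 4.22, Pdhb never under 5.72 and Dlat never under 4.76. On the 27 dim arrays the highest values were 4.41, 5.47 and 4.23, so that for Pdhb and Dlat these 10 arrays and the dim ones did not overlap. The HF75 array of Week 3 is bright too, and there the 3 subunits had their lowest values of all 38 arrays. The part of brightness in the group differences below was not tested beyond the values given beside them.

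**Figure D2:**
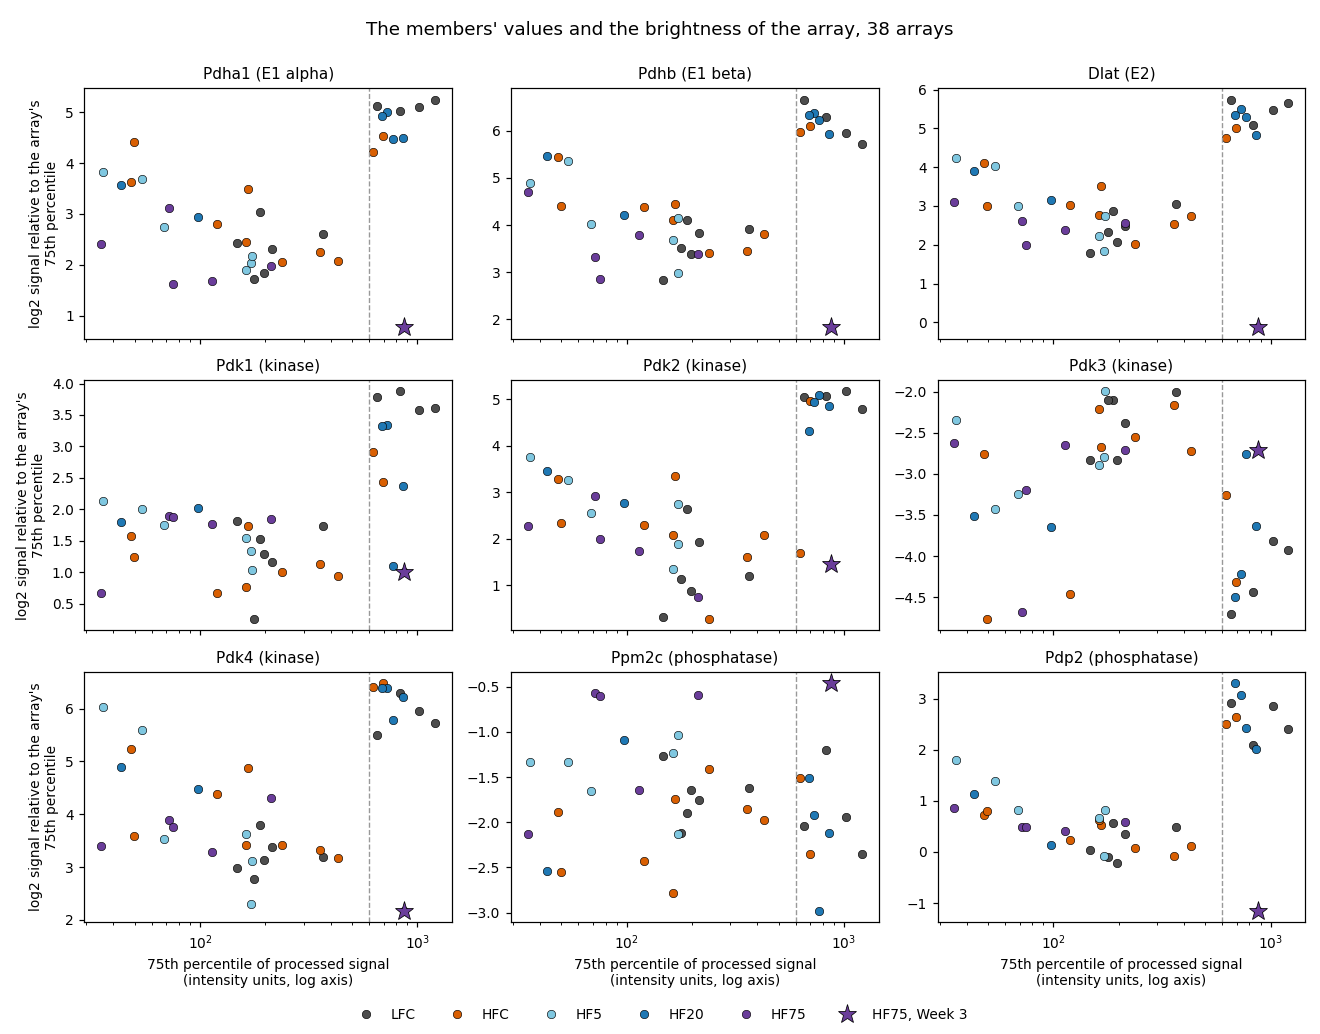
Log2 signal of each gene (vertical axis) against the 75th percentile of the processed signal of the array (horizontal axis, intensity units, log axis), 1 point per array, coloured by group, with a dashed line at 600 and a star for the HF75 array of Week 3. Right of the line Pdhb lies between 5.72 and 6.66 apart from the star at 1.83, and left of it between 2.84 and 5.47.

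Among the kinases, Pdk4 showed the same pattern as the subunits. It was well above background on all 38 arrays, from 2.17 to 6.48 with a median of 3.84, and saturated on 8 of them, all bright. On the 10 bright arrays other than HF75 Week 3 it was at 5.49 or more. Dim arrays reached similar values in HF5, at Week 9 (5.59) and Week 18 (6.03), so the high state of Pdk4 was not tied to bright arrays alone.

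Pdk2, the kinase present in most tissues, ran from 0.28 to 5.17 with a median of 2.45, and on bright arrays its median was 4.93 against 2.08 on dim ones. Pdk1 ran from 0.26 to 3.88 with a median of 1.74, and its medians on bright and dim arrays were 3.33 and 1.54. The bright HFC array of Day 10 for Pdk2, at 1.69, and the bright HF20 array of Week 6 for Pdk1 had values within the dim range, so that for both kinases bright and dim arrays overlapped.

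Pdk3 was the faintest signal of the set relative to its own background: its spot was well above background on 27 of 38 arrays. Its values ran from -4.77 to -2.00, and bright arrays were lower (median -3.92) than dim ones (median -2.72), the opposite of the other kinases. In HF5 and HF75 only 3 of 6 arrays measured it well above background, and in HF20 4 of 6, so the dose differences of Pdk3 rest on few measured values.

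The 2 phosphatases went separate ways. Pdp2 followed the subunits, from -1.15 to 3.30, with 2.01 or more on the 10 bright arrays other than HF75 Week 3 and at most 1.81 on the dim ones. Ppm2c did not: it was well above background on 35 of 38 arrays, from -2.98 to -0.46, with medians of -1.94 on bright and -1.66 on dim arrays. Its highest value was that of HF75 at Week 3, where the subunits were at their lowest. In a bulk sample like these, fewer cells of a type and less RNA per cell cannot be told apart.

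The first comparison asks what the high fat diet did to these genes over the whole course. Over 10 time points none of the 9 passed, and 0 of the 21625 genes tested did (0%). In LFC, Pdk1 had a lowest value of 0.26, a median of 1.78 and a highest of 3.88, and in HFC 0.67, 1.19 and 2.91. The ranges overlapped, and HFC was lower at 7 of 10 time points. The difference of -0.82 (SE 0.44) was the largest of the set, with an adjusted p of 0.652 by limma. For the other 8 genes it lay between -0.42 (SE 0.46) for Pdk2 and 0.16 (SE 0.46) for Pdk4.

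The subunits show how wide these intervals are. Pdha1 had a mean of 3.44 ± 1.49 in LFC and of 3.19 ± 0.99 in HFC (SD, n = 10 each), and HFC was higher at 5 of 10 time points. Its difference was -0.25 with a 95% interval from -1.31 to 0.81. That of Pdhb was -0.07 (-0.92 to 0.78) and that of Dlat -0.30 (-1.29 to 0.68). Pdk4, the kinase known to answer to fatty acids, was higher in HFC at 7 of 10 time points, by 0.16 with an interval from -0.85 to 1.16. The median difference of the 9 genes was -0.26, beside 0.05 for all genes, and no gene of the set reached an unadjusted p under 0.05, where 6.82% of all genes did.

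With the brightness of the array in the model the median of the 9 genes was above 0 for this comparison, at 0.18, and the directions of Pdha1 (0.23), Pdhb (0.27), Dlat (0.18) and Pdp2 (0.24) turned. Pdk4 was then at 0.72 (SE 0.39, adjusted p 1 by limma) and Pdk1 at -0.24. At the 5 time points at which both arrays were dim, HFC was higher by 0.61 for Pdha1 (4 of 5 time points), by 0.70 for Pdk2 (4 of 5) and by 0.55 for Pdk4 (5 of 5), and lower by 0.15 for Pdk1. With saturated values left out, a setting chosen after the data were seen, Pdk4 was at 0.55 (SE 0.27) and Pdhb at 0.70 (SE 0.38), and neither passed (adjusted p 0.651 by limma for each). This setting drops values because they are high: for Pdhb 4 in LFC and 0 in HFC, and for Pdk4 3 in LFC and 2 in HFC. The upward shift of HFC minus LFC for Pdhb is therefore in part built into the setting. The sign of the diet difference of Pdha1, Pdhb, Dlat, Pdp2 and Pdk2 therefore depended on how bright arrays were handled, and none of the settings run gave a call for any of the 9.

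Restricted to Weeks 3 to 18, 0 of 9 passed, where 2 of 21625 genes did (0.00925%). Pdk1 was lower in HFC at 5 of 6 time points, by -1.15 (SE 0.48, adjusted p 0.352 by limma), and it was the only gene of the set with an unadjusted p under 0.05, beside 13.9% of all genes. Its LFC values had a lowest of 0.26, a median of 2.70 and a highest of 3.88, against 0.67, 1.13 and 2.44 in HFC. The 3 highest LFC values, at Weeks 3, 9 and 12, came from bright arrays, and at the 3 time points with both arrays dim the mean difference was -0.11. Ppm2c was at -0.53 (SE 0.27, adjusted p 0.366 by limma), lower at 4 of 6 time points, and stayed at -0.57 at those 3 time points.

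**Figure D3:**
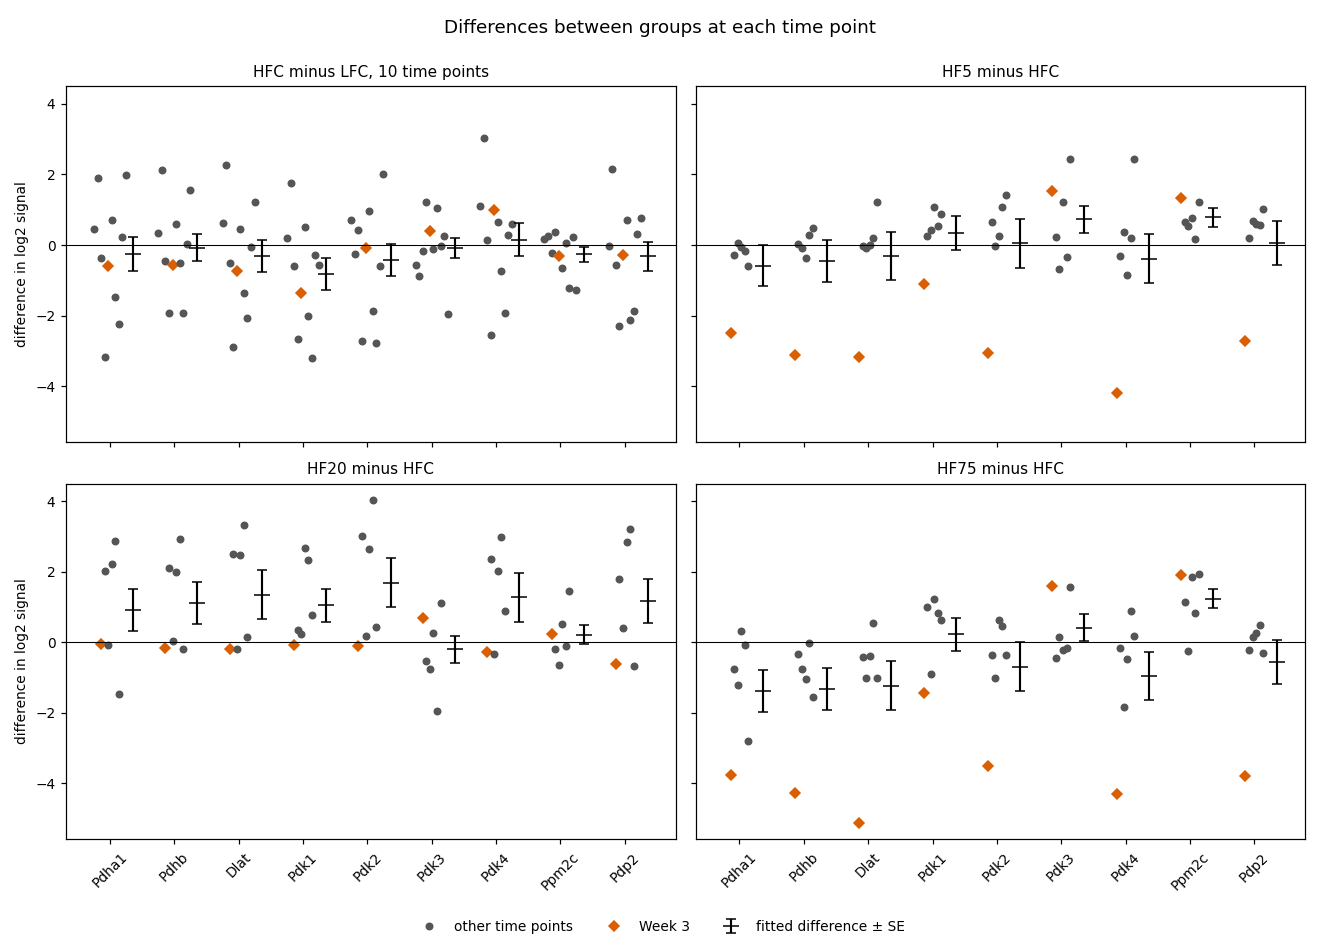
Difference in log2 signal between groups (vertical axis) for each gene (horizontal axis), with 1 point per time point, Week 3 as orange diamonds, and the fitted difference with its standard error as a bar. In HF5 and HF75 minus HFC the Week 3 points of the subunits, Pdk2, Pdk4 and Pdp2 are the lowest of each gene, and in HF20 minus HFC the points of most genes are spread from below 0 to above 2.

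The next comparisons ask what each dose of Kal-1 did on top of the high fat diet, at Weeks 3 to 18. They share the 6 HFC arrays and are therefore not independent of each other. In HF5, 0 of 9 genes passed, and 0 of 21625 did (0%). Ppm2c had the clearest difference: its HF5 values had a lowest of -2.14, a median of -1.33 and a highest of -1.03, against -2.78, -2.39 and -1.41 in HFC. The groups overlapped, and HF5 was higher at 6 of 6 time points, which 3.48% of all genes were. The difference was 0.78 (SE 0.27, 1.72-fold), with an adjusted p of 0.814 by limma. It was the only gene of the set with an unadjusted p under 0.05, beside 5.52% of all genes. The same HFC arrays are the baseline of the HF75 difference of Ppm2c, a gene named before for its signal in HF75. Its result in HF5 is therefore no independent evidence. Against LFC, Ppm2c in HF5 was higher by 0.25, at 3 of 6 time points. Pdk3 was at 0.73 (SE 0.38), and the other genes lay between -0.58 for Pdha1 and 0.35 for Pdk1. The Week 3 pair set much of this: at Week 3, where the HFC array was bright, HF5 minus HFC was -4.19 for Pdk4, a limit because the HFC spot was saturated and the true difference can be larger, and over the other 5 weeks it averaged 0.37.

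In HF20, 8 of 9 genes were higher than in HFC, and 0 of 9 passed, as did 0 of all genes (0%). At an unadjusted p under 0.05 there were 2 of 9, in a comparison in which 32.8% of all genes reached that level. Pdk2 led, with a lowest value of 2.77, a median of 4.58 and a highest of 5.08 in HF20, against 0.28, 2.32 and 4.95 in HFC. It was higher at 5 of 6 time points, by 1.70 (SE 0.70, adjusted p 0.125 by limma, 3.24-fold). Pdk1 was higher at 5 of 6 time points by 1.04 (SE 0.48, adjusted p 0.141 by limma).

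For the subunits the HF20 values were 2.94, 4.48 and 5.01 for Pdha1 (lowest, median, highest), against 2.06, 3.21 and 4.53 in HFC, and the differences were 0.92 (SE 0.59) for Pdha1, 1.12 (SE 0.59) for Pdhb and 1.35 (SE 0.69) for Dlat. Pdk4 was at 1.27 (SE 0.69) and Pdp2 at 1.17 (SE 0.62). Pdk3 (-0.20) and Ppm2c (0.21) differed least. The median of the 9 genes was 1.12, beside -0.18 for all genes. Of the 6 HF20 arrays 4 were bright, against 1 of the 6 HFC arrays of these weeks. At the 2 weeks with both arrays dim, Weeks 9 and 18, the means were -0.77 for Pdha1, -0.08 for Pdhb, -0.03 for Dlat, 0.28 for Pdk4 and 0.30 for Pdk2. With brightness in the model, Pdk2 was at 0.95, Dlat at 0.84 and Pdha1 at 0.41.

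In HF75, none of the 8 genes tested passed, and 0 of all genes did (0%). At an unadjusted p under 0.05 there were 9.26% of all genes and, among the 8 members other than Ppm2c, Pdha1 and Pdhb. All 3 subunits were lower than in HFC. Pdha1 had a lowest value of 0.77, a median of 1.83 and a highest of 3.12, and the difference of -1.38 (SE 0.59) had an adjusted p of 0.530 by limma. Pdhb was lower at 6 of 6 time points, which 2.54% of all genes were, by -1.33 (SE 0.59, adjusted p 0.533 by limma). Dlat was at -1.23 (SE 0.69) and lower at 5 of 6.

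Without the HF75 array of Week 3 these differences shrank to -1.03 (SE 0.60) for Pdha1, -0.91 (SE 0.58) for Pdhb and -0.66 (SE 0.65) for Dlat, and Pdhb was lower at 5 of 5 time points. That of Pdk4 went from -0.95 to -0.60, and that of Pdp2 from -0.57 to -0.16. These are fitted values that keep the other arrays of Week 3. Over the other 5 weeks the mean of HF75 minus HFC was -0.90 for Pdha1, -0.74 for Pdhb and -0.45 for Dlat. It was -0.28 for Pdk4 and 0.08 for Pdp2, which was higher in HF75 at 3 of 5 weeks. The Ppm2c values in HF75 were -0.46, -1.65, -2.14, -0.57, -0.59 and -0.60 at Weeks 3, 6, 9, 12, 15 and 18. Those of Weeks 6 and 9 lie within the range of the other groups, and these are the values that had named the gene. The difference from HFC was 1.23 (SE 0.27, 2.35-fold) and higher at 5 of 6 time points. It was 1.12 (SE 0.28) without Week 3 of HF75, and is a description only.

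Against LFC, no gene of the set passed for any dose, where 2 genes did for HF5 (0.00925%), 0 for HF20 (0%) and 6 for HF75 (0.0277%). HF75 was lower for Dlat (-1.65, SE 0.69), Pdha1 (-1.61, SE 0.59) and Pdhb (-1.46, SE 0.59), with adjusted p values of 0.217 to 0.229 by limma. These 3 had an unadjusted p under 0.05, beside 18.7% of all genes. The HF75 array of Week 3 is included: there HF75 minus LFC was -5.87 for Dlat, -4.35 for Pdha1 and -4.83 for Pdhb. These were the lowest of the 6 time points for each, and that of Pdhb is a limit because the LFC spot was saturated. For Dlat the other weeks lay between -2.46 and 0.51. Ppm2c, which had been named for its signal on these same HF75 arrays, was higher by 0.70 (SE 0.27), given as a description. Pdha1 was lower at 5 of 6 time points, whereas Pdhb and Dlat were lower at 3 of 6, those with a bright LFC array. At the 3 time points with both arrays dim HF75 differed from LFC by -0.24 for Pdha1, 0.10 for Pdhb, 0.26 for Dlat and 0.73 for Ppm2c.

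The doses were also compared with each other by an F test over HF5, HF20 and HF75. Here 4 of 9 genes passed, where 2972 of 21625 did (13.7%): Pdhb (adjusted p 0.0348 by limma), Pdha1 (0.0381), Ppm2c (0.0410) and Dlat (0.0416). Pdk2 (0.0512) and Pdk4 (0.0580) lay just outside the threshold, and Pdp2 (0.102), Pdk3 (0.157) and Pdk1 (0.337) further out. For Ppm2c the test uses the HF75 arrays that had named it before, and it is no independent evidence.

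The order of the doses was the same for all subunits: HF20 was highest and HF75 lowest. Pdha1 had means of 2.73 ± 0.85 in HF5, 4.23 ± 0.82 in HF20 and 1.93 ± 0.79 in HF75 (SD, n = 6 each). HF20 was above HF75 at 6 of 6 weeks, which 12.1% of all genes were, by 2.30 ± 1.01 (SD over weeks, 4.93-fold), and above HF5 at 4 of 6, by 1.51 ± 1.61. For Pdhb the corresponding differences were 2.44 ± 1.21 and 1.58 ± 1.49, and for Dlat 2.58 ± 1.48 and 1.66 ± 1.79. The levels thus did not follow the order of the doses.

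Complete separation of 2 dose groups was seen for Dlat and Pdk4. The HF20 values of Dlat were 3.15 or higher and its HF75 values 3.11 or lower. For Pdk4 they were 4.48 or higher and 4.31 or lower. Of all genes, 3.79% were higher on every HF20 array than on any HF75 array. Of these arrays 4 of HF20 and 1 of HF75 were bright, and the part of brightness in the separation was not tested. For Ppm2c the order was turned: HF20 minus HF75 was -1.02 ± 0.51, with HF20 lower at 6 of 6 weeks, which 10.6% of all genes were, and HF5 minus HF75 was -0.45 ± 0.65, with HF5 lower at 5 of 6.

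**Figure D4:**
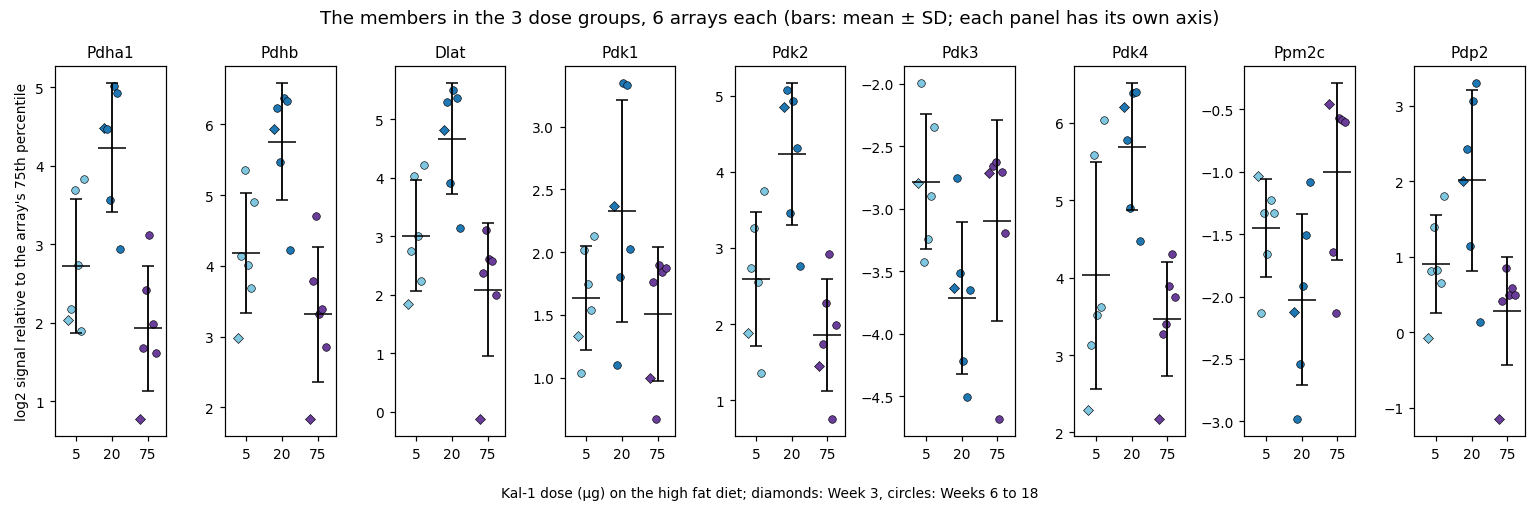
Log2 signal (vertical axis, separate for each gene) in the groups given 5, 20 and 75 µg of Kal-1 on the high fat diet (horizontal axis), with 6 arrays per group, Week 3 as diamonds, and the mean with its SD as bars. The HF20 and HF75 points of Dlat and Pdk4 do not overlap, the 3 subunits are highest in HF20, and Ppm2c is highest in HF75.

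These calls rested on few arrays. Without the HF75 array of Week 3, 0 of 9 genes passed, and the adjusted p values by limma became 0.0673 for Pdhb, 0.0707 for Pdha1, 0.0755 for Dlat and 0.0786 for Ppm2c. The differences between HF20 and HF75 over the other 5 weeks were 2.11 for Pdhb, 2.02 for Pdha1 and 2.11 for Dlat, and HF20 was higher at 5 of 5 weeks for each. With brightness in the model 0 of 9 passed, and 0 of all 21625 genes did. The adjusted p values were 0.417 to 0.446 by limma for the same 4 genes. HF20 minus HF5 then came to 0.75 for Pdha1, 0.98 for Pdhb and 0.90 for Dlat, whereas HF75 minus HF5 went from -0.80 to -0.98 for Pdha1 and from -0.87 to -1.01 for Pdhb. For Ppm2c, HF20 minus HF5 was -0.57 without brightness in the model and -0.71 with it.

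Arrays that shared a slide give the same contrast free of slide differences. HF20 and HF5 shared a slide at Weeks 3 and 15, and HF20 was higher by 2.45 and 3.04 for Pdha1, by 2.95 and at least 2.64 for Pdhb, whose HF20 spot was saturated at Week 15, and by 2.98 and 3.13 for Dlat. The HF20 arrays of those weeks were bright and the HF5 arrays dim. HF20 and HF75 shared a slide at Week 18, both dim, and HF75 was lower by -1.32 for Pdha1, -1.37 for Pdhb and -1.15 for Dlat, while Ppm2c was higher by 0.48. HFC and LFC shared slides at Days 6 and 10, where HFC was higher by 1.09 and by at least 3.02 for Pdk4, the Day 10 spot of HFC being saturated, and by 0.45 and 1.91 for Pdha1. At Day 10 the HFC array was bright and the LFC array dim.

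Over the time course of LFC and HFC no gene of the set had a trend that passed, where 304 of 21625 genes did (1.41%). Slopes were negative for 8 of 9 genes, from -0.80 (SE 0.75) per 100 days for Pdk2 to -0.16 (SE 0.59) for Pdha1, and that of Ppm2c was 0.09 (SE 0.23). The difference of slopes between the diets passed for 0 of 9 genes and for 0 of all genes (0%). It was largest for Ppm2c, at -0.74 (SE 0.41) per 100 days, and for Pdk1, at -0.73 (SE 0.96). The steps between neighbouring time points were much larger than these slopes: from Week 3 to Week 6 Pdha1 went from 5.12 to 1.73 in LFC and from 4.53 to 2.44 in HFC.

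Of the 9 genes, 7 have a second probe. For the subunits the pair moved together over the arrays, with r = 0.955 for Pdha1 and 0.962 for Dlat (38 arrays) and 0.983 for Pdhb (37 arrays). The arrays share brightness, so these values describe the pairs and carry no test. The second probes gave the same directions for the subunits in all dose comparisons. HF20 minus HFC was 1.28, 1.38 and 1.45 by the second probes of Pdha1, Pdhb and Dlat, and HF75 minus HFC -1.30, -1.09 and -0.81. For Ppm2c the pair correlated at 0.378 only. Its second probe was also higher than in HFC, by 0.77 in HF75 and by 0.50 in HF5. It reads the same arrays that had named the gene, so this is a description and no independent evidence. With the probes of a gene averaged, 4 of 9 genes passed among doses, and Ppm2c (0.0779) was replaced by Pdk2 (0.0481, both by limma).

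For the kinases the probes disagreed more. Those of Pdk1 correlated at 0.794, and HF75 minus HFC was 0.22 by the selected probe and -0.39 by the other. Those of Pdk2 correlated at 0.832, but HF5 minus HFC was 0.05 by one and -0.68 by the other, and HFC minus LFC over Weeks 3 to 18 was -0.39 and 0.50. The selected Pdk2 probe is printed in 2 spots, which differed by more than 1 on 8 of 38 arrays, and the spots gave 1.53 and 1.86 for HF20 minus HFC. Those of Pdk3 correlated at 0.433 and had opposite signs for HF5 minus HFC (0.73 and -0.25), HF75 minus HFC (0.42 and -0.60) and HFC minus LFC over Weeks 3 to 18 (-0.06 and 0.92). The Pdk3 values, differences and correlations in the other paragraphs are those of the selected probe alone, and no direction of the gene is drawn from them.

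Across all 38 arrays, Pdha1, Pdhb, Dlat, Pdk2, Pdk4 and Pdp2 moved together, with r from 0.808 to 0.972 over their 15 pairs (Spearman 0.759 to 0.958). Bright and dim arrays form separate clusters, so the pairs were also read within each. On the 27 dim arrays r ran from 0.621 to 0.935, with Pdhb and Dlat closest. On the 11 bright arrays it ran from 0.595 to 0.989, but this rests on the HF75 array of Week 3: on the other 10 it ran from -0.67 for Dlat and Pdk4 to 0.837 for Pdha1 and Dlat. The spots of Pdk4 were saturated on 8 of those 10 arrays and those of Pdhb on 6, which limits their spread there. Pdk1 followed the 6 genes less closely on dim arrays (0.117 to 0.528), Pdk3 ran against them (-0.45 to -0.09) and Ppm2c showed no common direction (-0.49 to 0.07). Ppm2c and Pdk1 had r of 0.612 on the dim arrays and 0.699 on those 10 bright ones. Over all 38 arrays it was only 0.113, and on all 11 bright arrays -0.01. These are descriptions over arrays that share groups, slides and depth of signal.

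**Figure D5:**
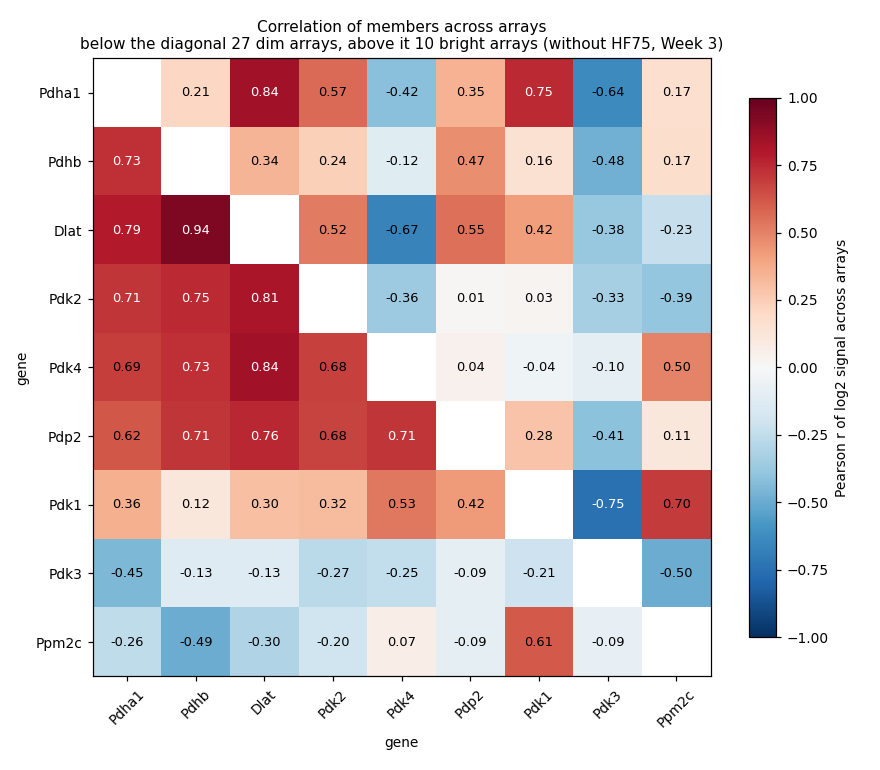
Pearson r of log2 signal between each pair of genes (both axes), over the 27 dim arrays below the diagonal and over the 10 bright arrays other than HF75 Week 3 above it, with the value in each square. On the dim arrays all pairs among Pdha1, Pdhb, Dlat, Pdk2, Pdk4 and Pdp2 lie at 0.621 or above, and on the bright ones they spread from -0.67 to 0.837.

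The subunits also moved with the brown and the white fat markers. Over 37 arrays, without HF75 Week 3, r with the mean of the 12 brown fat markers was 0.759 for Pdha1, 0.789 for Pdhb and 0.776 for Dlat, and with the erythroid mean it was -0.543, -0.550 and -0.617. The erythroid mean had its lowest group median, -1.45, in HF20 and was at 0.47 in HF5 and 0.85 in HF75, and the brown fat mean had group medians of 4.00 in HF20, 3.60 in HF5 and 3.06 in HF75. The Ucp1 spot was saturated on the bright HF20 arrays (Weeks 3, 6, 12 and 15) and on some bright LFC and HFC arrays. Brown fat means of those arrays are therefore lower limits. Over the 37 arrays the subunits had r of 0.487 (Pdha1), 0.478 (Pdhb) and 0.555 (Dlat) with the log2 75th percentile. The white fat mean had r of 0.709, 0.669 and 0.639 with the same 3 genes over those 37 arrays, and its group medians were -1.11 in HF20, -2.40 in HF5 and -3.47 in HF75. The skeletal muscle mean had r of 0.222, 0.210 and 0.161. With that muscle mean as a covariate 0 of 9 genes passed among doses, and 0 of all 21625 genes did. The adjusted p values by limma were 0.0562 for Pdhb, 0.0600 for Ppm2c, 0.0605 for Pdha1 and 0.0651 for Dlat. The part of the brown fat, white fat and erythroid markers in the dose differences was not tested.

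The genes whose pattern was most like that of each member, among 20622 with a value on all 38 arrays, are given by rank. The nearest to Pdha1 was 1700020C11Rik at 0.961, followed by Gm2736 and XM_001479647, both at 0.955. Sdha, a subunit of succinate dehydrogenase, had r = 0.976 with Dlat, and Idh3b, a subunit of isocitrate dehydrogenase, 0.974 with Pdhb. Dlat was itself the third nearest to Pdhb, at 0.972. The nearest to Pdk4 were Pgk1, a glycolytic kinase, at 0.965, Apoo at 0.964 and Hibch, an enzyme of valine breakdown, at 0.960. Cpt1b, which brings fatty acids into mitochondria, stood second for Pdp2 at 0.964, behind Clstn3 at 0.966. The nearest to Pdk1 was Psph (0.928), to Pdk2 Clpb (0.932), to Pdk3 Cenpt (0.916) and to Ppm2c Hiatl1 (0.868), the lowest of these. On dim arrays alone the values for Sdha and Idh3b were 0.925 and 0.913, and that for Hiatl1 was 0.853.

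The other genes around pyruvate dehydrogenase were read from 6 lists, which were also chosen with earlier results known. In HFC against LFC over 10 time points 0 genes of any list passed. Among the 14 genes of pyruvate entry and fates, Pck1, which makes phosphoenolpyruvate from oxaloacetate, was higher in HFC at 9 of 10 time points by 1.16 (SE 0.24), and Acly, which splits citrate into acetyl-CoA for fat synthesis, was lower at 9 of 10 by -2.04 (SE 0.43). Both had an adjusted p of 0.652 by limma. The median of that list was -0.38 beside 0.05 for all genes.

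In HF20 against HFC 0 genes of any list passed either, though list medians were above that of all genes (-0.18): 1.21 for pyruvate entry and fates, 1.23 for the 7 genes of the sister complexes that handle 2-oxoglutarate and branched-chain keto acids, 1.09 for 5 cofactor genes, 0.87 for 16 fasting and PPAR genes, 1.39 for 11 regulators of the kinases and 0.42 for 10 hypoxia genes. In the same comparison the median of 12 skeletal muscle markers was 1.74, above those of the 6 lists, and that of 7 erythroid markers was -1.57, with 0 genes called in either. Srebf1, a regulator of fat synthesis genes, was higher at 6 of 6 time points, which 3.36% of all genes were, by 1.73 (SE 0.59, adjusted p 0.121 by limma), and Slc16a7, a pyruvate and lactate carrier, by 2.22 at 6 of 6 (SE 0.75, adjusted p 0.121 by limma). In HF75 against HFC 0 genes of any list passed, and the medians of the same 6 lists were -0.79, -0.95, -1.01, -0.56, -0.60 and -0.37, beside -0.03 for all genes. These medians include the HF75 array of Week 3.

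Among doses the lists had more calls, beside 13.7% of all genes: 8 of 14 for pyruvate entry and fates, 5 of 7 for the sister complexes, 3 of 5 for cofactors, 4 of 16 for fasting and PPAR genes, 6 of 11 for regulators and 4 of 10 for hypoxia genes. Each followed the order of the subunits, HF20 highest and HF75 lowest, in its 2 leading genes. Not all called genes did: HF75 minus HF5 was above 0 for 1 of the 8 called genes of pyruvate entry and fates. The same held for 1 of the 4 called hypoxia genes. HF20 minus HF5 and HF75 minus HF5 were 1.52 and -0.84 for Brp44l, which is Mpc1 of the pyruvate carrier, and 1.78 and -0.63 for Dld, the E3 enzyme that pyruvate dehydrogenase shares with its sister complexes. They were 2.38 and -0.99 for Ogdh, the E1 enzyme of the 2-oxoglutarate complex, and 1.35 and -0.81 for Bckdk, the kinase of the branched-chain complex. For Lipt1, which attaches lipoate, they were 2.22 and -0.60, and for Lias, which makes it, 1.18 and -0.46. Ppara, the fatty acid receptor that drives Pdk4, stood at 2.87 and -1.69, Mlxipl, a glucose sensing factor, at 2.89 and -1.62, Ucp3 at 3.24 and -1.01, Slc25a20 at 2.39 and -0.92, Vegfa at 2.51 and -0.62, and Egln1 at 0.86 and -0.42. Their adjusted p values lay between 0.0338 and 0.0416 by limma. Of the marker lists, 0 of 12 brown fat genes and 2 of 5 white fat genes passed. Without the HF75 array of Week 3, and also with brightness in the model, 0 genes of any of the 6 lists passed. With brightness in the model 0 of all 21625 genes passed either.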

How the data were processed

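Total RNA of brown adipose tissue was labelled with Cy3 and hybridised to 38 Agilent arrays of a single colour on 32 slides, scanned on 12 days. The members and gene lists were chosen with earlier results of these data known. The deposited scanner files hold intensity units: the processed signal, in which the authors' scanner software (Feature Extraction 9.1 per the labels, 10.5.1.1 per the file headers) had corrected background. The deposited table holds the authors' log2 ratios, each against LFC at that time point, and served as an alternative. Its Week 15 columns do not follow the scanner values. No sample column was unmapped (0).

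Here log2 processed signal minus the 75th percentile of each array was used, with the highest-mean probe per gene and genes whose spot passed the well-above-background mark on 6 arrays or more. Days on diet are 14 plus 7 per week. Differences were fitted with limma 3.58.1 (R 4.3.3), two-sided, with the time point as a block and Benjamini-Hochberg adjustment over 21625 genes (threshold 0.05). Groups at the same time point share its label and, except at Weeks 6 and 9, 1 scan day. The trend over days had no time point term. The number of arrays limits precision. The fits were tested on simulated data with known changes. Of other genes, those with the 2 smallest p values of a list and the 3 most like each member are named, in part. Alternatives were quantile and normexp (offset 50) processing, the deposited table, filters, probe averaging, slide and scan blocks and array weights. Further ones were brightness and muscle covariates, an unpaired t-test pooled over time points and leaving out time points.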

Additional observations from a re-analysis of the deposited data

Results flagged for a closer look

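Of 45 sets of values of 1 gene in 1 group, 3 held a value far from its neighbours by Dixon's rule, where chance marks about 1 in 20 sets. In HF75 at Week 3 Dlat was at -0.12, with the nearest of the other HF75 arrays at 1.99, and Pdp2 was at -1.15, with the nearest at 0.42. Both come from the array on which 7 of 12 brown fat markers were lower than on every other array. In HF75 at Week 12 Pdk3 was at -4.68, with the nearest at -3.19, and its spot was not well above background there.

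The 3 doses differed for 4 genes in the F test of limma, each on 18 dose arrays within a fit of 30. The adjusted p was 0.0348 for Pdhb, 0.0381 for Pdha1, 0.0410 for Ppm2c and 0.0416 for Dlat. HF20 was above HF75 at 6 of 6 weeks for the subunits, by 2.30 to 2.58 on the log2 scale, and below it at 6 of 6 weeks for Ppm2c, by -1.02. Ppm2c had been named before from these HF75 arrays, so its test is no independent evidence.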

How the results depend on the processing

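In the comparisons of HFC with LFC, of each dose with HFC and LFC, of the trend and of the slopes, 0 of the 9 genes passed under every alternative run, with 1 exception. Array weights gave 5 in HF20 against HFC, where 4592 of 21625 genes passed in that setting. The differences among doses were less stable. The 4 calls became 0 with normexp, 0 with the deposited table (which also leaves out Week 15, whose omission alone gave 0), 0 with no filter on dim probes, 0 with array brightness as a covariate, 0 with the skeletal muscle list as a covariate, 0 without the HF75 array of Week 3 (a setting chosen after the data were seen) and 7 with array weights. The cause was not tested. Over the fits that each leave out 1 time point the number of calls ranged from 0 to 7: it was 0 without Week 3, 6, 12 or 15 and 7 without Week 18. In the paired fits the time point is the block, and with no replicate block 2 of the 9 genes passed among doses. The counts over all genes moved too, from 2972 among doses to 0 with normexp, 1306 with no block, 6398 with slide as a random block (6 of the 9 genes) and 6407 with array weights. An unpaired t-test of HFC against LFC arrays, pooled over 10 time points, marked 882 genes at an unadjusted p under 0.05. Over Weeks 3 to 18 it marked 1088, and 0 in both after Benjamini-Hochberg adjustment. The study's methods apply a t-test at each time point instead, which 1 array per group does not allow. The signs of the called differences among doses were not compared across the alternatives. The uncalled diet differences of Pdha1, Pdhb, Dlat and Pdp2 changed sign with brightness as a covariate. Signal over background limits Pdk3 most, and saturation limits the highest values of Pdk4 and Pdhb.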
